A study of Oryza sativa with 4 samples.

Results

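The ASR (abscisic acid, stress, ripening) genes of rice were examined in coleoptiles before and during senescence. The family was taken as 6 loci of the MSU rice annotation, chosen by locus ID with earlier results of these data known. The tables hold 3439 transcripts (3339 loci and transcripts without an ID). Of the 6 loci, LOC_Os01g73250 and LOC_Os11g06720 had a row, and LOC_Os01g72900, LOC_Os01g72910, LOC_Os02g33820 and LOC_Os04g34600 were not listed. Both listed ASR loci were higher at day 2, LOC_Os11g06720 by 15.6-fold to FPKM 315.8 and LOC_Os01g73250 by 48.0-fold to FPKM 15.1. The 48.0-fold rests on a control level of only FPKM 0.314. Passing 4-fold was set by the selection of the listed transcripts. Of all 3339 loci and transcripts without an ID, 56.8% were higher, and 64.5% with those at 0 in control.

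All libraries came from wild type coleoptiles of the variety PB1 (Pusa Basmati 1). The 2 control libraries were made from seedlings kept under water until 7 days after germination, and the 2 day 2 libraries from seedlings of 9 days after germination that, per the study's methods, had spent the last 2 days in air. The treatment field of the labels reads submergence in both groups. Water or air, age and senescence thus differed together between the groups and cannot be told apart. Each group has 1 deposited FPKM per transcript that pools its 2 libraries. FPKM is the fragments mapped to a transcript, scaled to its length in kilobases and to the depth of the library. No difference below could therefore be given a replicate check, an error or a test here. The study's own p-value across its replicates was not used. In whole coleoptiles, a change in the number of cells of a type and a change in RNA per cell can also not be told apart.

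ASR proteins are small, hydrophilic plant proteins, first described in ripening tomato fruit and in tomato leaves under water stress. They are largely disordered in solution, bind zinc, and have been given both a chaperone-like role in the cytosol and a role in binding DNA in the nucleus. Abscisic acid (ABA), the hormone of drought and seed dormancy, induces many of them, and in rice the family has been linked to drought and aluminium stress. Arabidopsis has no ASR gene.

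LOC_Os11g06720 (chromosome 11, 3278450 to 3279419 on IRGSP-1.0) is described in the study's annotation as an abscisic stress-ripening gene and was the abundant locus of the pair. Its level was FPKM 20.2 in control and FPKM 315.8 at day 2, a log2 ratio of 3.97. Among the 3439 listed transcripts it ranked 823 from the top in control and 82 at day 2, where 97.6% of the listed transcripts had a lower level. It was thus already well above most listed transcripts under water, and its gain of FPKM 295.6 placed it among the most abundant of those listed in air. A single transcript is listed for the locus, with a genomic span of 970 bases, and the matching RefSeq gene LOC4349876 also has 1 transcript and a span of 953 bases in another assembly.

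LOC_Os01g73250 (chromosome 1, 42460554 to 42461946 on IRGSP-1.0), with the same description, was the scarce locus. Its level was FPKM 0.314 in control and FPKM 15.1 at day 2, a log2 ratio of 5.59. It ranked 2789 of the listed transcripts in control, with 18.9% of them below it, and 1095 at day 2, with 68.2% below it. The locus therefore moved from the lower part of the listed transcripts to above their middle, and its gain was FPKM 14.8. It too has a single listed transcript, with a span of 1393 bases, and the RefSeq gene LOC4324459 matched to it has 1 transcript and a span of 1360 bases.

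**Figure D1:**
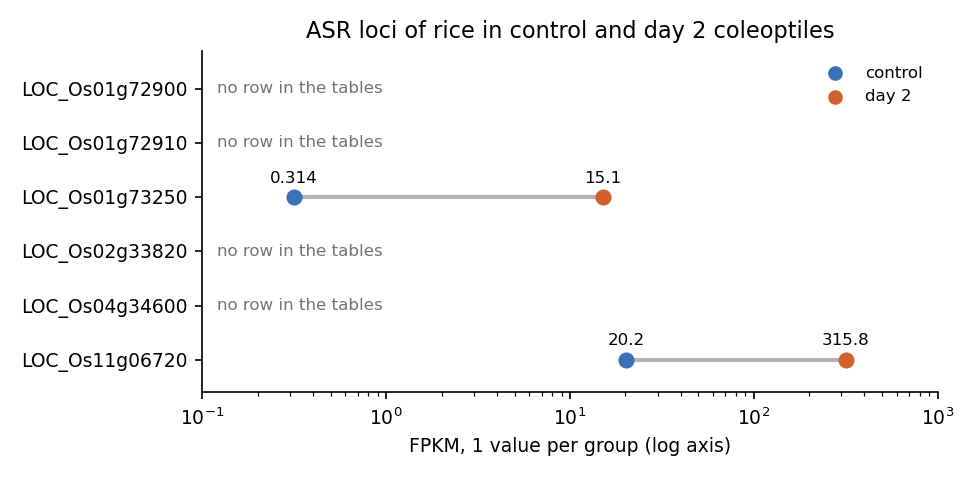
FPKM of the 6 ASR loci, 1 value per group, on a log axis, with control in blue, day 2 in orange and a grey line joining the values of a locus. Both listed loci were higher at day 2, and the control level of LOC_Os11g06720 (20.2) lay above the day 2 level of LOC_Os01g73250 (15.1).

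The loci thus differed more in level than in direction. LOC_Os11g06720 was 64.3 times as abundant as LOC_Os01g73250 in control and 20.9 times as abundant at day 2. It supplied 98.5% of the summed FPKM of the pair in control and 95.4% at day 2, so the sum, which went from FPKM 20.5 to FPKM 330.8 with a log2 ratio of 4.01, followed this locus. The log2 ratio of LOC_Os01g73250 was larger by 1.62, but it rests on a control value close to 0. With 1 FPKM added to both groups the order was reversed, with log2 ratios of 3.61 for LOC_Os01g73250 and 3.90 for LOC_Os11g06720.

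The tables give levels scaled to library depth and no number of fragments, so no counting interval was computed. If a transcript covered its whole span, the control FPKM of LOC_Os01g73250 corresponds to an FPM of 0.438 (FPKM times the span in kilobases, a fragment number scaled to library depth alone), and introns would lower this further. Its day 2 value corresponds to FPM 21.0, close to the FPM of 19.6 of LOC_Os11g06720 in control, whose day 2 value corresponds to FPM 306.3. The control level of LOC_Os01g73250 thus rested on a lower FPM than any other value of the pair, and its fold is the less precise.

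Every transcript in the tables had been selected for a change, and the smallest absolute log2 ratio among those above 0 in both groups was 2.00. That the listed ASR loci passed 4-fold is therefore set by the selection and is no finding. For a minimum FPKM of 1 in either group and a change of at least 4-fold, 2 of 2 listed ASR loci were higher, where 56.8% of all 3339 listed loci and transcripts without an ID were higher, 64.5% were higher when those at 0 in control are included, and 34.4% were lower. With 2 loci, a count in 1 direction is no result about the family. Against the 1970 transcripts that were higher and above 0 in both groups, whose median log2 ratio was 3.13, the ratio of LOC_Os01g73250 ranked 178 from the top and that of LOC_Os11g06720 ranked 562. The median levels of these transcripts were FPKM 1.03 in control and FPKM 11.2 at day 2, so LOC_Os11g06720 lay far above them in both groups and LOC_Os01g73250 below in control and above at day 2.

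**Figure D2:**
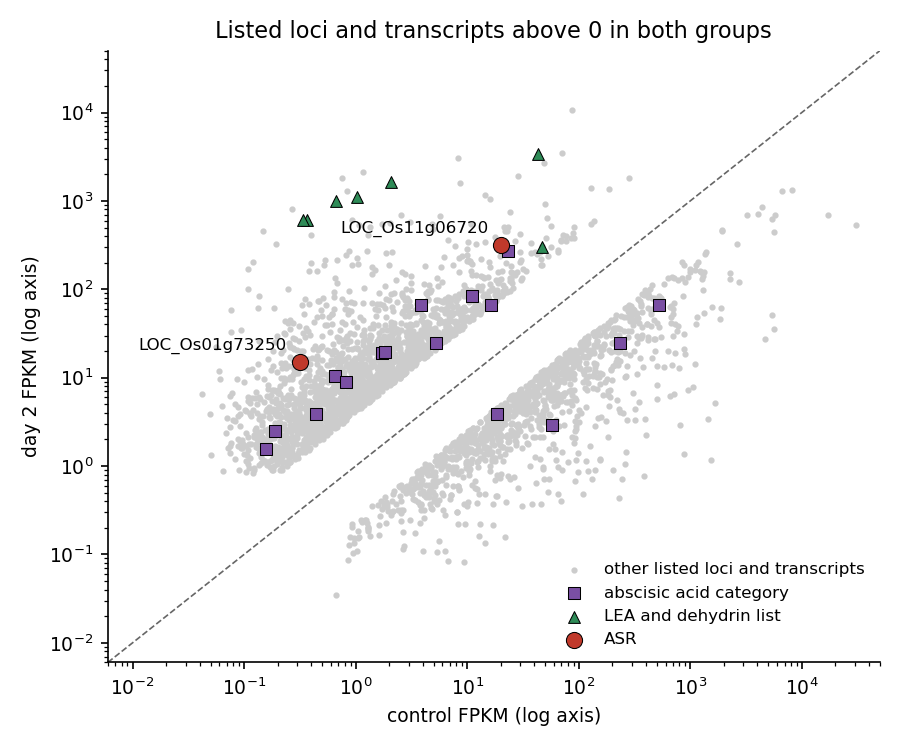
Control against day 2 FPKM of every listed locus or transcript above 0 in both groups, on log axes with the line of equal levels dashed, and with the ASR, abscisic acid and LEA or dehydrin loci marked. The empty band around the dashed line is the selection for 4-fold change, and LOC_Os11g06720 (20.2 and 315.8) lies among the higher listed levels at day 2.

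For the other ASR loci the tables give no level. A locus with no row may have changed by less than 4-fold, missed the study's p-value or its level limit, or been specific to control, and these cannot be told apart here. Their places in the order of locus IDs were searched for transcripts without an ID that could stand for them. LOC_Os01g72900 and LOC_Os01g72910, which are consecutive IDs, fall between the listed loci LOC_Os01g72834 and LOC_Os01g73005, an interval of 102.8 kb with 0 listed transcripts without an ID. LOC_Os04g34600 falls between LOC_Os04g34370 and LOC_Os04g34630, an interval of 133.8 kb, also with 0. LOC_Os02g33820 falls between LOC_Os02g33670 and LOC_Os02g34810, an interval of 811.0 kb that holds 1 transcript without an ID. That transcript went from FPKM 19.5 to FPKM 4.08, and whether it belongs to the ASR locus is not known.

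The chromosome 1 loci of the family lie close together in ID order, but only LOC_Os01g73250 was listed. The neighbourhood of the listed loci was therefore described next. The 5 listed transcripts within 100 kb of LOC_Os01g73250 all lie on its side of lower coordinates. All 5 were higher at day 2, where 64.5% of all items were higher. The farthest of them, LOC_Os01g73005, lies 99.9 kb away. Beyond it, the next listed locus, LOC_Os01g72834 at 205.3 kb, was lower, with a log2 ratio of -2.19. The nearest of the 5 was the thioredoxin locus LOC_Os01g73234, which encodes a protein of disulfide reduction and lies 6.25 kb away. It went from FPKM 2.86 to FPKM 29.8, a log2 ratio of 3.38, and 1 RefSeq gene lies between it and the ASR gene. The peroxidase loci LOC_Os01g73200 and LOC_Os01g73170, 17.6 kb and 28.0 kb away, encode enzymes that reduce peroxides, and had log2 ratios of 3.38 and 4.04. The ASR locus had the lowest control level of this run and the largest log2 ratio. These neighbours other than the nearest were singled out after their values had been seen.

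On its other side the nearest listed locus was LOC_Os01g73700, described as a root cap and late embryogenesis related protein, 239.0 kb away. It was listed at 0 in control and at FPKM 10.9 at day 2, and no fold can be given against 0. Around LOC_Os11g06720 the tables are sparser. The only listed neighbour within 100 kb was LOC_Os11g06780, a BRI1-like receptor kinase locus 36.3 kb away, and it was lower at day 2, from FPKM 4.35 to FPKM 0.840, a log2 ratio of -2.37. On the other side the nearest was LOC_Os11g06300, described as an expressed protein, 253.3 kb away with a log2 ratio of 2.31. Within 250 kb, 3 of 4 listed neighbours of LOC_Os11g06720 and 7 of 9 of LOC_Os01g73250 were higher, against the 64.5% over all items.

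**Figure D3:**
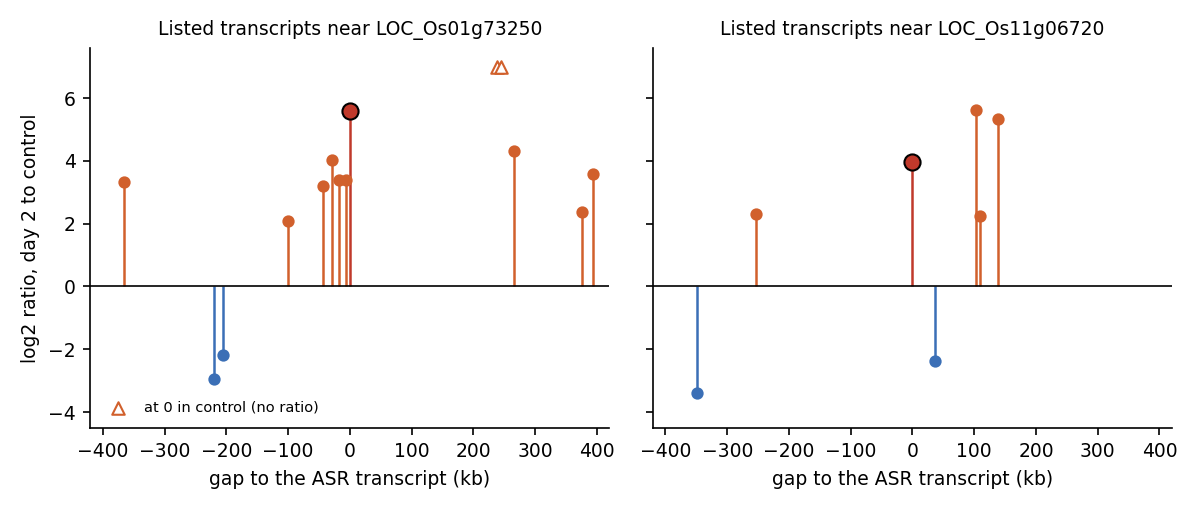
Log2 ratio of day 2 to control of the listed transcripts near each listed ASR locus, by the gap between the transcripts in kb, with the ASR locus in red, higher transcripts in orange, lower ones in blue, and triangles at a fixed height for transcripts listed at 0 in control. The 5 transcripts within 100 kb of LOC_Os01g73250 were all higher, and the 1 within 100 kb of LOC_Os11g06720 was lower. Of all items, 64.5% were higher.

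Because abscisic acid induces many ASR genes, the ABA loci were set beside them. The list was the 16 loci that the study assigned to abscisic acid with MapMan, all of them changed transcripts of these same libraries and so no independent evidence of a direction. Of the 16 loci, 12 were higher and 4 lower at day 2, where 56.8% of all items were higher and 34.4% lower. The median log2 ratio was 3.22, against 2.35 over all items with a ratio. These medians mix higher and lower loci, so they depend on the share in each direction. For the higher loci alone, the median was 3.44 in the list and 3.13 over all items. The ratios of both ASR loci lay above both medians of the list.

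The 9-cis-epoxycarotenoid dioxygenases cut the carotenoid precursor in the committed step of ABA synthesis. LOC_Os07g05940 of this group went from FPKM 1.82 to FPKM 19.7, a log2 ratio of 3.44, and LOC_Os02g47510 from FPKM 0.190 to FPKM 2.52, a log2 ratio of 3.73. Aldehyde oxidases catalyse the last step, and their 3 loci had log2 ratios between 2.93 and 3.45, with the highest level in LOC_Os07g18120, FPKM 84.0 at day 2. The carotenoid cleavage dioxygenase loci LOC_Os04g46470 and LOC_Os08g28240 had log2 ratios of 3.30 and 4.01, from low control levels of FPKM 0.158 and FPKM 0.648. The first of them is annotated as type 7, an enzyme known for strigolactone rather than ABA synthesis.

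Among the response genes, the bZIP loci LOC_Os06g10880 and LOC_Os09g28310, annotated by similarity to Arabidopsis factors that bind ABA response elements, had log2 ratios of 2.23 and 3.44. The HVA22 loci, named after an ABA-induced barley gene, had log2 ratios of 2.04 for LOC_Os08g36440 and 4.11 for LOC_Os11g30500 and day 2 levels of FPKM 66.8 and FPKM 66.6. All 4 loci described as GEM, proteins with a GRAM domain, were lower, and LOC_Os04g44510 among them went from FPKM 528.9 to FPKM 66.5. The GRAM domain locus LOC_Os12g29400 was higher, from FPKM 23.4 to FPKM 272.2.

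Late embryogenesis abundant (LEA) proteins and dehydrins are, like ASR proteins, hydrophilic and largely disordered, and protect cells as they lose water. Of 11 loci so described in the study's supplementary list, which was held in part, 7 were higher at day 2, 4 were listed at 0 in control with day 2 levels of FPKM 2.37 to FPKM 26.7, and 0 were lower. Over all items, 56.8% were higher, 64.5% with those at 0 in control, and 34.4% were lower. The list was chosen on these libraries as well. The 7 loci with a ratio had a median log2 ratio of 10.05. Of these 7, 5 are dehydrin loci on chromosome 11, whose own median was also 10.05, so the list median mostly describes them. Of the others, the LEA locus LOC_Os03g20680 had a log2 ratio of 10.71, and LOC_Os01g21250 had the smallest of the 7 at 2.67. The 5 dehydrin loci reached FPKM 605.0 to FPKM 3422 at day 2, above both ASR loci. Within this list, LOC_Os11g06720 was nearest in level to LOC_Os01g21250, which went from FPKM 46.8 to FPKM 298.4. The control level of LOC_Os11g06720 exceeded those of the loci of this list but LOC_Os01g21250 and LOC_Os11g26790, at FPKM 43.2. LEA loci outside the 11 were not compared, so this is no statement about all LEA and dehydrin loci.

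**Figure D4:**
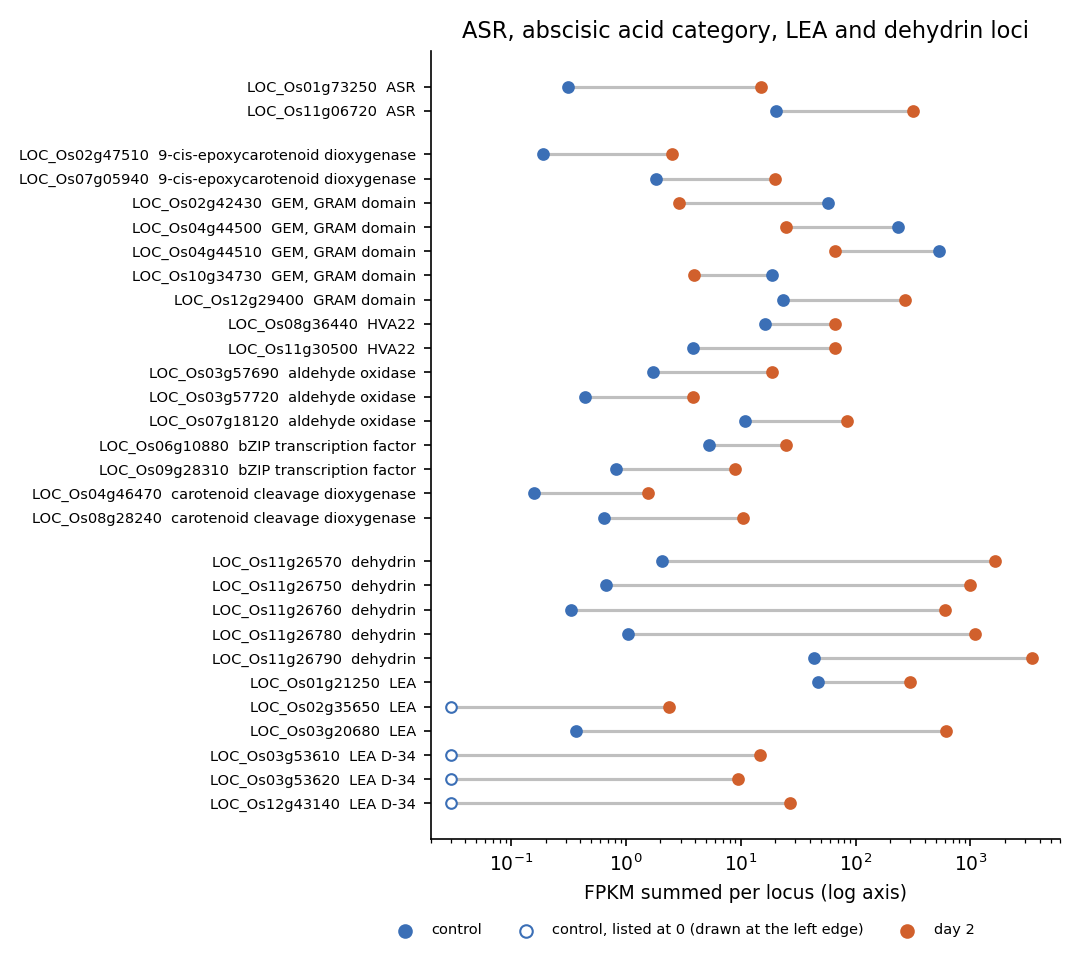
FPKM per locus in control (blue) and at day 2 (orange) for the listed ASR loci, the abscisic acid category and the LEA and dehydrin list, on a log axis, with open circles at the left edge for loci listed at 0 in control. Day 2 lies to the right of control for every locus drawn except the 4 GEM loci.

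The loci most like each ASR locus were found by the distance between log2 FPKM over the 2 group values. For LOC_Os11g06720 the nearest was the asparagine synthetase locus LOC_Os03g18130, of an enzyme that packs nitrogen into asparagine, at FPKM 19.9 and FPKM 321.3 and a distance of 0.03. The GRAM domain locus LOC_Os12g29400 of the abscisic acid category followed at a distance of 0.30, and LOC_Os06g07220, for which the sources used here gave no description, at 0.36. For LOC_Os01g73250 the nearest was LOC_Os03g17350, described as a white-brown complex homolog, a type of ABC transporter, at FPKM 0.333 and FPKM 14.5 and a distance of 0.10. LOC_Os04g59160, with no description here, and LOC_Os08g33680, described as YGL010w, followed at 0.15 and 0.17. With 2 values per locus, such likeness only says that the levels were close.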

How the data were processed

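According to the methods, reads were filtered by the authors in NGS QC Toolkit, mapped with TopHat to IRGSP-1.0 and ran Cufflinks, Cuffmerge and Cuffdiff. The deposited values are FPKM, 1 per transcript and group, with both libraries pooled. The authors kept transcripts with an absolute log2 ratio of 2 or more and those specific to day 2. Their methods also describe a shortlist of transcripts by a p-value across the biological replicates. Depth per library was not used here.

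The tables were joined by transcript, spaces around locus IDs were removed, and FPKM was summed per locus. Log2 ratios have no pseudocount. Loci counted as higher or lower had FPKM of at least 1 in at least 1 group and a change of 4-fold or more. Chromosome numbers follow the locus IDs. RefSeq genes (assembly ASM3414082v1) were matched for 2 of 2 listed members through the study's gene IDs. Distances on the chromosome run from the end of one transcript to the start of the next.

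The 6 loci and the lists were chosen with earlier results of these data known. Named loci were the members, the loci of the lists, the 3 loci nearest in level and the nearest listed locus on each side, plus the peroxidase loci near LOC_Os01g73250, chosen after their values were seen, and the listed loci around the unlisted members. A limma fit, planned in case the files gave single libraries, could not be made on 1 value per group. Python 3.11.15, pandas 2.3.3 and numpy 2.4.6 were used.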

Additional observations from a re-analysis of the deposited data

How the results depend on the processing

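No paired analysis was possible because each table has 1 pooled value per group. Nor could a replicate be left out. The promoter motifs were not run, since no sequences were used here. The alternatives were a pseudocount, other limits on low FPKM, the highest transcript alone, and day 2 divided or multiplied by 1.86, the ratio of the summed FPKM of the listed transcripts, control to day 2. Counting loci at 0 in control as higher was added after seeing the data. There were 43 alternative values over 10 results, of which 11 moved by more than 0.1 (log2 ratios) or 1.5 times (counts), 32 moved by less and 0 reversed. Part of the 32 could not move, since each listed ASR locus has 1 transcript and the ASR and LEA lists held no lower locus. The order of the ASR log2 ratios, which adding 1 FPKM reversed, was not among the 10 results.

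The log2 ratio of LOC_Os01g73250 was 5.20 when 0.1 FPKM was added to both groups and 3.61 when 1 FPKM was added. It was 4.69 with day 2 divided by the ratio of sums and 6.48 with day 2 multiplied by it. For LOC_Os11g06720 these scalings gave 3.07 and 4.86, and the pseudocounts moved it by less than 0.1. The sign could not change under these settings, so it is no measure of stability. At FPKM 1 in both groups, 1 ASR locus, LOC_Os11g06720, was counted as higher, as were 7 abscisic acid loci, 4 LEA or dehydrin loci and 1000 of all transcripts, since this limit takes out loci low in control. With loci at 0 in control counted, 11 LEA or dehydrin loci were higher.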

Other observations

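The abiotic drought and salt category of the study, taken up after the data had been seen and selected on the same libraries, went both ways. Of its 11 loci, 5 were higher and 6 lower at day 2, with a median log2 ratio of -2.10, where 56.8% of all items were higher and 34.4% lower. The BURP domain locus LOC_Os05g12640, annotated as weakly similar to the dehydration-induced RD22 of Arabidopsis, went from FPKM 2.56 to FPKM 691.8, a log2 ratio of 8.08. The desiccation-related locus LOC_Os04g33150 went from FPKM 0.813 to FPKM 69.2, a log2 ratio of 6.41. The 3 loci described as dehydration response related proteins were all lower and had been abundant in control, with FPKM between 91.5 and 294.1.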
